A study of Mus musculus with 6 samples.

Results

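The cytochrome P450 genes form a large family of heme enzymes that insert an oxygen atom into drugs, diet compounds, fatty acids, sterols and retinoids. They were taken here as every row of the deposited expression table whose symbol starts with Cyp and a digit, leaving out the sterol synthesis gene Cyp51. The rule gave 104 rows of 24956, among them 4 pseudogene symbols and 1 opposite-strand transcript. Cyp2d13 is annotated as a pseudogene as well, though its symbol does not show it. By family, 51 were Cyp2 genes, 9 Cyp3a genes, 23 Cyp4 genes and 21 others. The libraries came from mouse intestinal organoids, self-organising cultures of gut epithelium, all of the Apc Min genotype and grown in vitro. Apc restrains Wnt signalling, and the Min allele is a truncating mutation that leads to intestinal adenomas. There were 3 libraries from control medium and 3 from medium low in glutamine. The sources used here give no glutamine concentration, treatment time, gut segment or number of animals. They call the samples of a group biological replicates without saying whether these were separate animals or cultures, so a p-value reflects only how far these 6 samples spread, which may be technical.

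Most P450 enzymes sit in the endoplasmic reticulum and take electrons from P450 oxidoreductase (Por), in part by way of cytochrome b5. In the small intestine they are best known from enterocytes, where Cyp3a and Cyp2c enzymes meet swallowed drugs before the liver does. Cyp2c, Cyp2j and Cyp4 enzymes also oxidise arachidonic acid and other fatty acids. Transcription of drug-metabolising members is controlled by nuclear receptors such as PXR (Nr1i2) and CAR (Nr1i3), by HNF4 and, for the Cyp1 family, by the aryl hydrocarbon receptor (Ahr).

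The values are RPKM, reads scaled by transcript length and library depth, so levels can be set side by side between genes. Depth, which is not stated, was estimated from low values at 24380000 to 35340000 reads per library, and 1 RPKM of a transcript of 1 kilobase rested on 24.4 to 35.3 reads. Transcripts from the sex chromosomes separated the groups as well: Xist averaged 87.3 RPKM in control against 0.0286 in low glutamine, and the Y-linked Eif2s3y was at 0 in all control libraries and between 25.2 and 31.4 RPKM in low glutamine. Every library followed this pattern, so the 2 groups differ in the sex of their cells and may differ in origin. For every gene, the effect of the medium cannot be told apart from that of sex or origin. This holds for the P450 rows as well, although none lies on the X or Y chromosome.

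Of 5 short sequences searched for in the promoters of the family, an HNF4 sequence is shown here because neighbouring genes share it while their levels differ widely. Of 104 members 77 matched a RefSeq promoter entry (GRCm38.p6), and the 250 bases before each start were searched on both strands. The HNF4 sequence CAAAGTCCA was found in 11 of these 77 (14.3%) and in 0.451% of the 27025 genes in the promoter table. All 11 matches lay on the gene's own strand, with their first base 45 to 125 bases before the start, in 6 of 13 Cyp2c genes, 4 of 9 Cyp3a genes and Cyp8b1. The stretches are given 5′ to 3′ on the gene's strand, with the HNF4 sequence in capitals.
Cyp3a11: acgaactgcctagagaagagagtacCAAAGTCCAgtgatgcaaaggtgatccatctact
Cyp3a16: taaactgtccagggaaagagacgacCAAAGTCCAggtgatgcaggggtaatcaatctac
Cyp3a41a: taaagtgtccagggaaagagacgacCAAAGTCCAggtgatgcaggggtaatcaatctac
Cyp2c65: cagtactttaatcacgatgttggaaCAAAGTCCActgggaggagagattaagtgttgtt
Cyp2c68: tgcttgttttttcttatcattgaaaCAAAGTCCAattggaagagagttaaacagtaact
Cyp2c67: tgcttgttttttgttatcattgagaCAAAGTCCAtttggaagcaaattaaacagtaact
Cyp2c70: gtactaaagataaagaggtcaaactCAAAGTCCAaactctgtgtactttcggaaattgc
They lie on the minus strand at chr5:145879930-145879988 (Cyp3a11), chr5:145469789-145469847 (Cyp3a16), chr5:145720198-145720256 (Cyp3a41a), chr19:39741145-39741203 (Cyp2c68), chr19:39649134-39649192 (Cyp2c67) and chr19:40187317-40187375 (Cyp2c70), and on the plus strand at chr19:39060865-39060923 (Cyp2c65). Members arose by gene duplication and share sequence for that reason as well, so the 11 are not independent, and no test was run on the share. Of the 11, only Cyp3a11, Cyp2c65 and Cyp2c68 reached a mean of 1 RPKM in the organoids. Cyp3a16 and Cyp3a41a, whose stretches resemble each other closely, measured at most 0.150 RPKM in any library. A match is a run of letters and not evidence of binding.

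P450 transcripts were lower as a family in low glutamine. Their summed level was 2201, 2277 and 2218 RPKM in the control libraries and 536, 511 and 582 RPKM in the low glutamine libraries, 4.11-fold lower on average. The groups were far apart relative to their spread, at 2232 ± 40.1 and 543 ± 36.3 RPKM (SD, n = 3 each). Cyp2 genes summed to 1577 ± 28.1 and 400 ± 26.2 RPKM, 3.95-fold lower. The Cyp3a sum dropped from 378 ± 12.8 to 41.9 ± 4.38 RPKM, 9.02-fold, and the Cyp4 sum from 246 ± 17.4 to 73.6 ± 3.82 RPKM, 3.34-fold. The 21 other rows summed to 30.4 ± 0.778 and 28.0 ± 2.20 RPKM, with overlapping libraries. As a share of all RPKM in a library, the family took 0.608% ± 0.0105 in control and 0.161% ± 0.00600 in low glutamine.

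**Figure D1:**
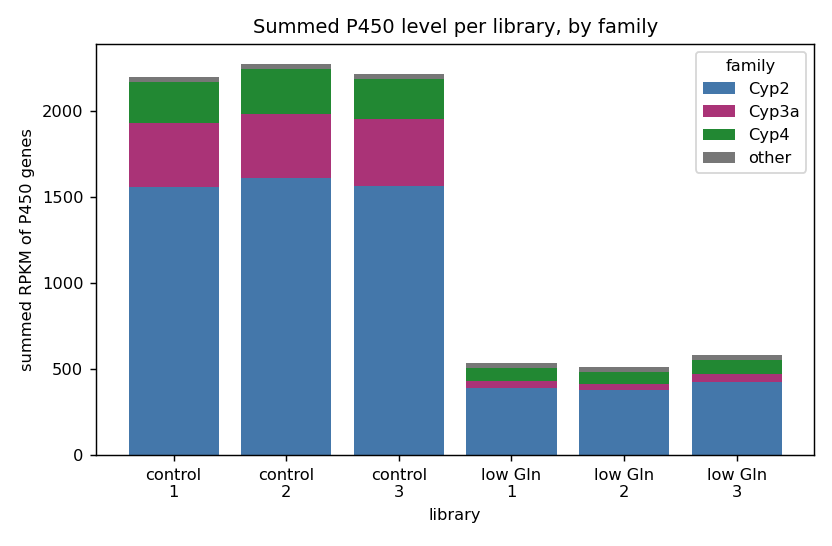
Summed RPKM of the 104 P450 rows in each library, with bar segments for the Cyp2, Cyp3a, Cyp4 and other families. The control bars reach 2201 to 2277 RPKM and the low glutamine bars 511 to 582 RPKM.

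Of the 104 rows, 30 averaged 1 RPKM or more across libraries and were tested, 24 of them lower and 5 higher in low glutamine at a limma adjusted p under 0.05. Across all 11082 genes tested, 30.3% were lower and 36.1% higher by the same rule, 66.4% in all. The 24 and the 5 were the same genes whose 3 values of a group lay wholly below or above those of the other, a pattern seen in 31.3% and 38.9% of all genes tested, 70.2% together. Of the 30, 21 were called lower with a fall of at least 2-fold, against 5.13% of all genes tested. Only 3 of the 30 were called higher with a rise of at least 2-fold, against 6.42%. That share leaves out called genes at 0 in every control library, which have no ratio, so it is a lower bound. The median log2 fold change of the 30 was -1.43, and that of all genes tested was 0.03. Of the 30, 5 passed the limit on low values through the higher group alone (Cyp2u1, Cyp2c38 and Cyp2d22 through control, Cyp1b1 and Cyp4f17 through low glutamine), so the counts describe these 30 genes only. Fold changes with a standard error are on the log2(RPKM + 1) scale, which understates low genes, while folds without one are ratios of mean RPKM.

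**Figure D2:**
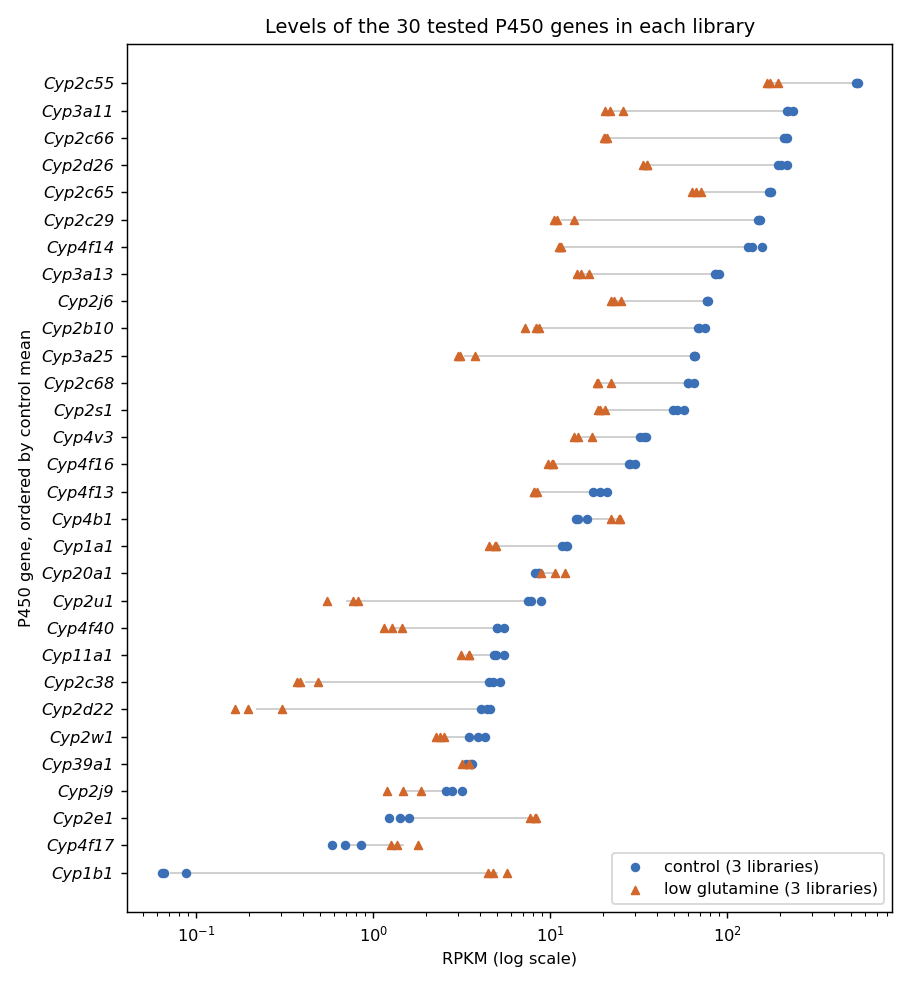
RPKM (log axis) of the 30 tested P450 genes in each of 3 control (circles) and 3 low glutamine (triangles) libraries, ordered by control mean, with a grey line between the group means. The 13 genes above 50 RPKM in control all have their low glutamine values to the left of their control values, while Cyp1b1, Cyp2e1, Cyp4b1, Cyp4f17 and Cyp20a1 have them to the right.

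The Cyp2c genes made up the largest part of the family. Cyp2c55, an arachidonic acid hydroxylase of the gut and the most abundant P450 transcript in every library (chromosome 19, 39006940 to 39042690), measured 536, 546 and 544 RPKM in control against 175, 168 and 195 RPKM in low glutamine. It fell 3.02-fold (log2 fold change -1.59 ± 0.07 SE, adjusted p = 7.5e-10). The lowest control library lay far above the highest low glutamine library. Its neighbour Cyp2c65 stood at 176, 176 and 171 RPKM against 67.0, 62.9 and 71.6 RPKM and fell 2.596-fold (-1.37 ± 0.06, adjusted p = 1.1e-09). The next gene in the cluster, Cyp2c66, fell much further, from 209, 217.5 and 215 RPKM to 20.3, 20.3 and 21.0 RPKM, 10.4-fold (-3.32 ± 0.05, adjusted p = 1.3e-13). Both are known from the intestine, where they oxidise arachidonic and linoleic acid.

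Cyp2c29, an epoxygenase that is also abundant in liver (chromosome 19, 39287044 to 39330713), measured 150, 153 and 151 RPKM in control against 10.9, 10.5 and 13.6 RPKM in low glutamine. The fall was 13.0-fold (-3.60 ± 0.08, adjusted p = 1.9e-12). Cyp2c68 stood at 60.3, 60.2 and 64.6 RPKM against 18.3, 18.6 and 21.9 RPKM, a fall of 3.15-fold. Cyp2c38 dropped from 4.76, 5.22 and 4.51 RPKM to 0.388, 0.370 and 0.490 RPKM, 11.6-fold. The low glutamine values of Cyp2c38 correspond to 12.2 to 13.8 reads per kilobase of transcript, so its ratio is imprecise. The 6 tested Cyp2c genes therefore all fell, in 2 ranges: 2.596 to 3.15-fold for Cyp2c65, Cyp2c55 and Cyp2c68, and 10.4 to 13.0-fold for Cyp2c66, Cyp2c38 and Cyp2c29. Of all genes tested, 30.3% were lower.

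Ratios taken within a library, which do not depend on scaling between libraries, restate these unequal falls library by library. Cyp2c29 stood at 0.868 ± 0.0136 of Cyp2c65 in control and at 0.173 ± 0.0143 of it in low glutamine. Cyp2c66 went from 1.23 ± 0.0314 times Cyp2c65 to 0.306 ± 0.0146 times. Neither pair of groups overlapped, with an exact two-sided permutation p of 0.10, the smallest that 3 against 3 libraries allow and one that cannot pass 0.05. The same p was obtained for all 9 ratios computed. Their pairs were picked by hand and were not among the planned comparisons, so the lack of overlap adds no separate support. These paralogs are similar in sequence, and the authors' rule for reads that fit several genes was not given in the sources used here, so part of a level may belong to a neighbour.

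Abundant and near-silent rows lie side by side in the Cyp2c cluster. The 15 rows of the cluster span 1.18 Mb of chromosome 19, from 39006940 to 40187286, and run in the order Cyp2c55, Cyp2c65, Cyp2c66, Cyp2c53-ps, Cyp2c29, Cyp2c39, Cyp2c38, Cyp2c67, Cyp2c68 and 6 more. The 6 tested genes all lie in the first 9 positions: Cyp2c55, Cyp2c65 and Cyp2c66 follow each other directly, and Cyp2c29, Cyp2c38 and Cyp2c68 are each preceded by a row below 1 RPKM. Past Cyp2c68, Cyp2c40, Cyp2c69, Cyp2c37, Cyp2c54, Cyp2c50 and Cyp2c70 had group means of at most 0.358 RPKM. Cyp2c70, which makes muricholic acids in mouse liver, measured 0.256 and 0.250 RPKM, with overlapping libraries.

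**Figure D3:**
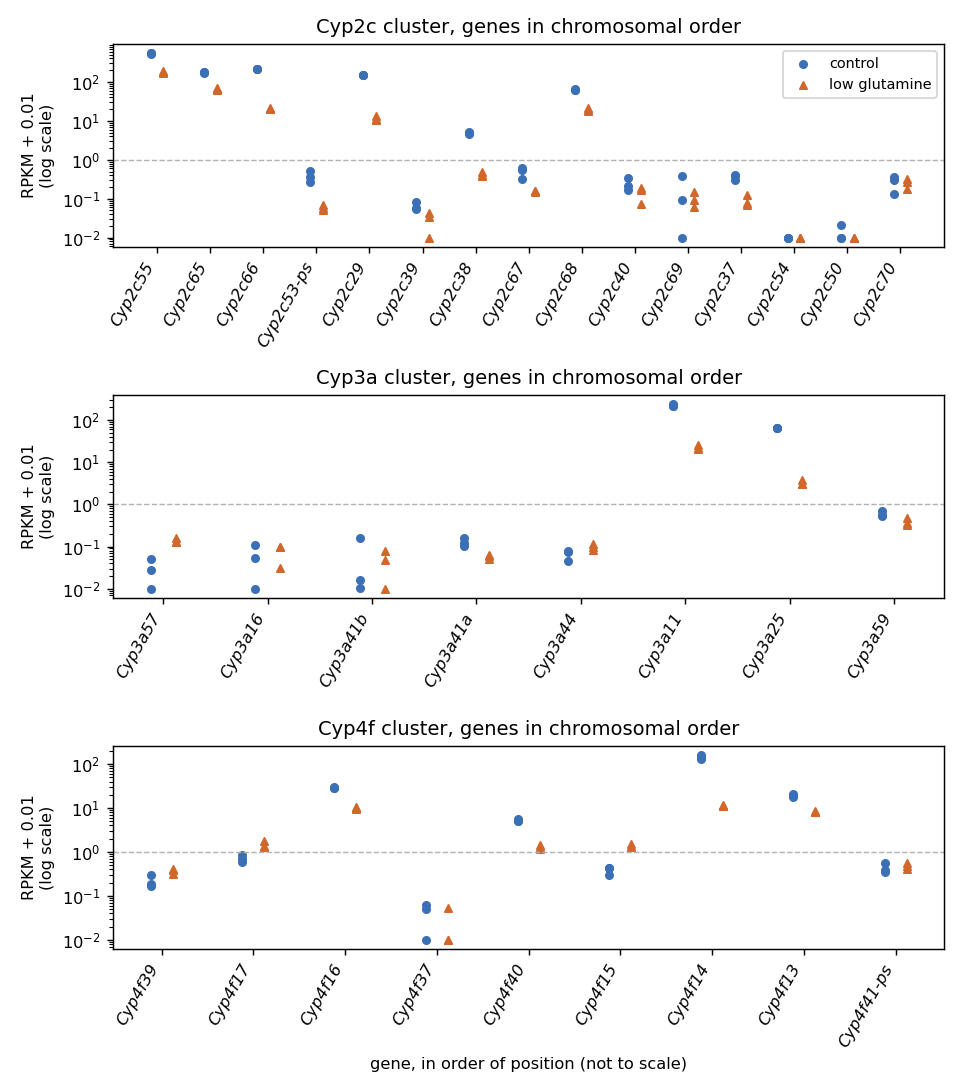
RPKM + 0.01 (log axis) in 3 control (circles) and 3 low glutamine (triangles) libraries for the genes of the Cyp2c, Cyp3a and Cyp4f clusters in chromosomal order, not to scale. The dashed line marks 1 RPKM, and each cluster mixes genes above 50 RPKM in control with neighbours below 1 RPKM.

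All 3 tested Cyp3a genes fell, where 30.3% of all genes tested were lower. Cyp3a11, the main drug-oxidising Cyp3a enzyme of mouse liver and gut and a PXR target (chromosome 5, 145854607 to 145879854), measured 220, 219 and 237 RPKM in control against 21.7, 20.5 and 25.8 RPKM in low glutamine. That is 9.93-fold lower (-3.26 ± 0.08, adjusted p = 3.6e-12). Cyp3a25, its neighbour at 145977192 to 146009644, fell from 64.6, 66.2 and 65.1 RPKM to 3.09, 3.01 and 3.74 RPKM. At 19.9-fold (-3.96 ± 0.07, adjusted p = 2.4e-13) this was the largest fall in the family. Cyp3a13, which lies outside the cluster at 137892933 to 137925610, fell from 84.9, 86.2 and 90.2 RPKM to 14.9, 14.1 and 16.7 RPKM, 5.71-fold (-2.44 ± 0.06, adjusted p = 8.4e-12). Within libraries, Cyp3a25 went from 0.291 ± 0.0140 to 0.145 ± 0.00201 of Cyp3a11, and from 0.750 ± 0.0249 to 0.215 ± 0.00889 of Cyp3a13. The remaining 6 Cyp3a rows stayed below the test limit, the highest being Cyp3a59 at 0.595 and 0.376 RPKM.

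In the chromosome 7 cluster of 13 Cyp2 rows, 2 were tested and both fell, where 30.3% of all genes tested were lower. Cyp2b10, the standard target gene of CAR (chromosome 7, 25897658 to 25926624), fell from 69.1, 74.7 and 68.4 RPKM to 8.31, 7.21 and 8.69 RPKM, 8.76-fold (-2.99 ± 0.07, adjusted p = 2.4e-12). Cyp2s1, an enzyme of epithelia outside the liver in the same cluster, fell 2.71-fold, from 51.8, 56.8 and 49.6 RPKM to 19.2, 18.7 and 20.5 RPKM (-1.39 ± 0.06, adjusted p = 1.2e-09). The other 11 rows of that cluster, among them Cyp2a4, Cyp2a5 and Cyp2b9, had group means below 0.1 RPKM.

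Cyp2d26 measured 201, 218 and 194 RPKM in control against 35.4, 33.3 and 35.1 RPKM in low glutamine, 5.91-fold lower (-2.53 ± 0.06, adjusted p = 3.5e-12). At the other end of the same cluster, Cyp2d22 fell from 4.07, 4.37 and 4.56 RPKM to 0.304, 0.165 and 0.196 RPKM, 19.5-fold. The low glutamine values of Cyp2d22 correspond to 5.42 to 10.3 reads per kilobase of transcript, so its ratio is imprecise. The 8 rows between them stayed under 1 RPKM in both group means, with Cyp2d10 highest at 0.811 and 0.355 RPKM.

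Cyp2j6, of the epoxygenase subfamily Cyp2j, was steady among replicates at 77.7, 77.0 and 77.2 RPKM in control against 22.9, 22.2 and 25.1 RPKM in low glutamine (3.30-fold lower, -1.68 ± 0.06, adjusted p = 8.8e-11). Cyp2j9 fell from 2.86 to 1.51 RPKM. Cyp2u1, which hydroxylates long-chain fatty acids, fell from 7.78, 8.82 and 7.45 RPKM to 0.769, 0.821 and 0.547 RPKM, 11.3-fold. Cyp2w1, known from fetal gut and colorectal tumours, fell from 3.90 to 2.39 RPKM (-0.53 ± 0.07, adjusted p = 2.5e-05).

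Cyp2e1 was the 1 tested Cyp2 gene of 15 that rose, where 36.1% of all genes tested were higher. This ethanol-oxidising enzyme (chromosome 7, 140763819 to 140774990) measured 1.59, 1.42 and 1.23 RPKM in control against 8.28, 7.70 and 8.18 RPKM in low glutamine. The rise was 5.71-fold (1.91 ± 0.07, adjusted p = 1.0e-10), with every low glutamine library above every control library.

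Among Cyp4 genes, which hydroxylate fatty acids and leukotrienes at the chain end, 5 of 7 tested members fell and 2 rose. Of all genes tested, 30.3% were lower and 36.1% higher. Cyp4f14, an omega-hydroxylase of leukotriene B4 (chromosome 17, 32903357 to 32917376), fell from 137, 158 and 132 RPKM to 11.4, 11.1 and 11.3 RPKM, 12.6-fold (-3.54 ± 0.07, adjusted p = 5.5e-13). Its neighbour Cyp4f13 fell less, 2.34-fold, from 19.1, 20.9 and 17.5 RPKM to 8.07, 8.14 and 8.42 RPKM. The within-library ratio of Cyp4f14 to Cyp4f13 was 7.42 ± 0.197 in control and 1.38 ± 0.0374 in low glutamine. Cyp4f16 fell 2.86-fold, from 28.4, 30.2 and 27.8 RPKM to 10.2, 9.71 and 10.3 RPKM, and Cyp4f40 3.99-fold, from 4.995, 5.02 and 5.47 RPKM to 1.28, 1.45 and 1.14 RPKM. Cyp4v3, the mouse counterpart of a fatty acid hydroxylase gene mutated in a human corneal and retinal dystrophy, fell 2.24-fold, from 32.3, 34.7 and 33.9 RPKM to 14.4, 13.6 and 17.1 RPKM.

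The Cyp4f cluster also held genes with the opposite direction. Cyp4f17 rose from 0.692, 0.588 and 0.852 RPKM to 1.79, 1.37 and 1.26 RPKM (0.53 ± 0.09, adjusted p = 2.4e-04). Cyp4f15, just below the test limit at a mean of 0.871 RPKM, measured 0.287, 0.430 and 0.422 RPKM in control against 1.28, 1.30 and 1.51 RPKM in low glutamine. Cyp4f17 was just above that limit at 1.09 RPKM. Cyp4b1, on chromosome 4 beside the Cyp4a genes (115624698 to 115647721), rose from 16.04, 14.4 and 14.0 RPKM to 24.3, 22.1 and 24.9 RPKM (1.61-fold, 0.65 ± 0.07, adjusted p = 2.3e-06). The 8 Cyp4a rows, PPARalpha targets in liver, had group means of at most 0.161 RPKM.

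**Figure D4:**
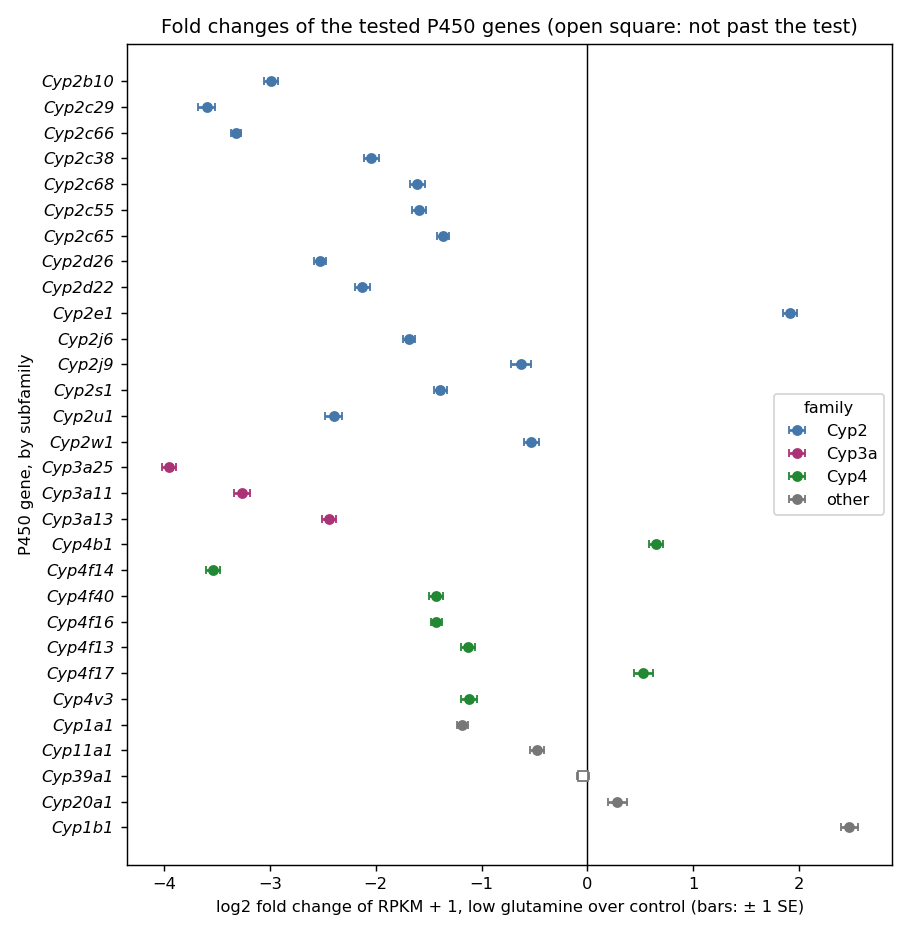
Log2 fold change of RPKM + 1, low glutamine over control, for the 30 tested P450 genes by subfamily, with bars of 1 standard error either side and colours for the families. Falls range from -0.48 (Cyp11a1) to -3.96 (Cyp3a25), 5 genes lie above 0 with filled circles, and Cyp39a1 (open square) did not pass the test.

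Of the 3 Cyp1 rows, Cyp1a1 fell, Cyp1b1 rose and Cyp1a2 was not tested, at 0.0122 ± 0.0111 and 0.0116 ± 0.0101 RPKM with overlapping libraries. Cyp1a1, the classic target of the aryl hydrocarbon receptor, fell from 12.4, 12.2 and 11.7 RPKM to 4.90, 4.49 and 4.95 RPKM, 2.53-fold (-1.18 ± 0.05, adjusted p = 1.5e-09). Cyp1b1, another receptor target that oxidises estrogens and carcinogens (chromosome 17, 79706940 to 79715061), was near 0 in control at 0.0874, 0.0661 and 0.0639 RPKM. It reached 4.73, 4.47 and 5.73 RPKM in low glutamine, a 68.6-fold rise (2.47 ± 0.08, adjusted p = 5.7e-11). Its control values correspond to 1.56 to 2.73 reads per kilobase, so the size of the ratio is imprecise while the groups are far apart. The level of Cyp1a1 was 170 ± 24.7 times that of Cyp1b1 in control and 0.969 ± 0.0916 times in low glutamine.

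The Cyp1a1 and Cyp1b1 promoters each hold 1 core xenobiotic response element GCGTG (capitals, CACGC where it lies on the opposite strand) in the 250 bases searched. So did 10 of 26 tested members with a promoter entry (38.5%), 51.4% of the tested genes and 30.9% of all genes in the table. The Cyp1a1 stretch (chr9:57697534-57697588, plus strand) and the Cyp1b1 stretch (chr17:79715108-79715162, minus strand) are shown as those of the tested Cyp1 genes. A match is not evidence of binding, and a link to the direction of either gene was not tested.
Cyp1a1: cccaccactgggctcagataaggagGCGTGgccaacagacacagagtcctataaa
Cyp1b1: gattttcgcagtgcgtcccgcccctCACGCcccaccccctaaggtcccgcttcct
Of 26 tested members, 4 held AGTTCA, a nuclear receptor half-site (15.4%, against 10.4% of tested genes), 3 held CAAAGTCCA (11.5% and 0.501%) and 1 held TTTATG, a CDX sequence (3.85% and 7.02%). The palindromic HNF1 sequence was found in 0 of them and in 0 tested genes. Cyp3a25 held none of the 5 sequences in its window, and neither did several other tested members with a promoter entry. A link between these sequences and the size of a fall was not tested.

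The 3 other tested members outside the Cyp2, Cyp3a and Cyp4 families each went a different way: Cyp11a1 fell, Cyp20a1 rose and Cyp39a1 did not pass. Cyp11a1, which makes the first step of steroid synthesis from cholesterol, fell from 5.50, 4.92 and 4.82 RPKM to 3.48, 3.47 and 3.14 RPKM (1.51-fold, -0.48 ± 0.06, adjusted p = 2.8e-05). Cyp39a1, an oxysterol hydroxylase, measured 3.62, 3.55 and 3.36 RPKM in control against 3.48, 3.47 and 3.18 RPKM in low glutamine, with overlapping groups (-0.04 ± 0.06, adjusted p = 0.52). Its sign turned with rescaling to a common RPKM sum (0.06), and with quantile normalization it passed as lower (-0.17). The orphan P450 Cyp20a1 rose from 8.54, 8.16 and 8.62 RPKM to 10.7, 8.87 and 12.2 RPKM (0.28 ± 0.09, adjusted p = 0.012). That call did not hold without low glutamine replicate 3 (0.18, adjusted p = 0.054), with median-of-ratios scaling (0.20, adjusted p = 0.053) or without the filter on low values (adjusted p = 0.073), within a range of 0.18 to 0.42 over the alternatives.

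Cyp27a1, a sterol hydroxylase of bile acid synthesis, lay below the test limit at 0.877, 0.905 and 0.994 RPKM against 0.880, 0.565 and 0.548 RPKM, and its groups overlapped. Cyp7b1, another oxysterol hydroxylase, measured 0.00870 ± 0.0151 and 0.0702 ± 0.0387 RPKM without overlap. Cyp24a1, the vitamin D degrading enzyme and a target of the vitamin D receptor, was at 0 in 5 libraries and at 0.0171 RPKM in control replicate 2. The receptor gene Vdr was abundant in both groups, at 69.4 ± 1.29 and 70.5 ± 5.32 RPKM (0.02 ± 0.06, adjusted p = 0.79). Vdr passed as higher with rescaling to a common RPKM sum (0.15) and with quantile normalization (0.20), and its sign turned with median-of-ratios scaling (-0.07). Cyp26b1, a retinoic acid hydroxylase, stood at most at 0.0188 RPKM in any library. Cyp2r1, the vitamin D 25-hydroxylase, measured 0.335 ± 0.0922 and 0.506 ± 0.192 RPKM.

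The 74 untested rows were low throughout. In all 6 libraries 19 of them were at 0 or below 1e-06 RPKM, and 55, these 19 included, had both group means below 0.1 RPKM. In the test without a filter on low values, 8 further rows passed as lower (Cyp2c23, Cyp2c37, Cyp2c53-ps, Cyp2c67, Cyp2d10, Cyp2d40, Cyp3a41a and Cyp3a59). In the same test 4 further rows passed as higher (Cyp3a57, Cyp4f15, Cyp4f39 and Cyp7b1). In that fit 32 of 88 members were lower and 8 higher, against 18.6% and 30.2% of the 18846 genes in it. The log2 fold changes of the further rows alone ran from -0.41 to 0.78, and most rest on few reads. Cyp4f15, at the upper end, reached 1.28, 1.30 and 1.51 RPKM in low glutamine. Several of the lower rows have an abundant neighbour in the same cluster, such as the pseudogene Cyp2c53-ps (0.368 and 0.0507 RPKM) between Cyp2c66 and Cyp2c29, and reads shared between copies cannot be told apart here.

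With these unequal falls, the makeup of the P450 transcripts shifted. Cyp2c55 made up 24.3% ± 0.288 of the summed P450 level in control and 33.0% ± 0.430 in low glutamine, and Cyp2c65 7.81% ± 0.144 and 12.4% ± 0.107. Cyp3a11 dropped from 10.1% ± 0.538 to 4.16% ± 0.232 and from rank 2 to rank 6 by level. Cyp4b1 moved from rank 17 to rank 4, at 0.664% ± 0.0560 and 4.38% ± 0.136. The control order by mean level began Cyp2c55, Cyp3a11, Cyp2c66, Cyp2d26, Cyp2c65, and Cyp2c66 and Cyp2d26 overlapped in their library values. In low glutamine it began Cyp2c55, Cyp2c65, Cyp2d26, Cyp4b1, Cyp2j6, and Cyp4b1 and Cyp2j6 overlapped. Over the 30 tested genes, 9 of 29 neighbours in this order overlapped in control and 16 of 29 in low glutamine.

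Most tested redox partners of the P450 enzymes were lower too. Por, which feeds electrons to every microsomal P450, fell from 89.9 ± 3.32 to 45.7 ± 2.17 RPKM (-0.96 ± 0.06, adjusted p = 1.8e-08). Cyb5a, cytochrome b5 of the endoplasmic reticulum, fell from 428 ± 17.1 to 111 ± 5.44 RPKM (-1.94 ± 0.06, adjusted p = 5.7e-11). Of 11 tested partners 9 fell and 0 rose, with a median of -0.36, against 30.3% lower and 36.1% higher of all genes tested. With rescaling to a common RPKM sum 7 fell (22.9% of all genes lower and 51.3% higher), and with median-of-ratios scaling 11 fell (40.6% and 29.6%). The untested partner Cyb5r2 was low, at 0.456 ± 0.107 and 0.875 ± 0.125 RPKM, and higher in low glutamine without overlap. In log2 units Cyb5b fell by 0.63, Pgrmc2 by 0.57 and Cyb5r4 by 0.43. The mitochondrial partners Fdx1 and Fdxr, which serve enzymes such as Cyp11a1, did not pass. Fdx1l, of the same list, passed as lower, at 18.9 ± 1.07 and 15.1 ± 2.36 RPKM (-0.315 ± 0.087, adjusted p = 0.0071).

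Heme genes were mixed. Alas1, the first and rate-limiting step of heme synthesis, fell from 15.0 ± 1.05 to 10.7 ± 0.392 RPKM (-0.45 ± 0.06, adjusted p = 2.9e-05), and Cpox from 73.8 ± 2.79 to 35.7 ± 0.831 RPKM. Urod and Blvra rose by 0.32 and 0.29. Hmox1, the inducible heme oxygenase, measured 4.76 ± 0.352 and 5.12 ± 0.546 RPKM (adjusted p = 0.30), and passed as higher with rescaling to a common RPKM sum (0.19). In all, 6 of 13 tested heme genes fell and 3 rose, where 30.3% of all genes tested were lower and 36.1% higher. The counts became 5 and 5 with that rescaling (all genes 22.9% and 51.3%), and 9 and 2 with median-of-ratios scaling (40.6% and 29.6%), so that they moved in the same direction as those of all genes.

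**Figure D5:**
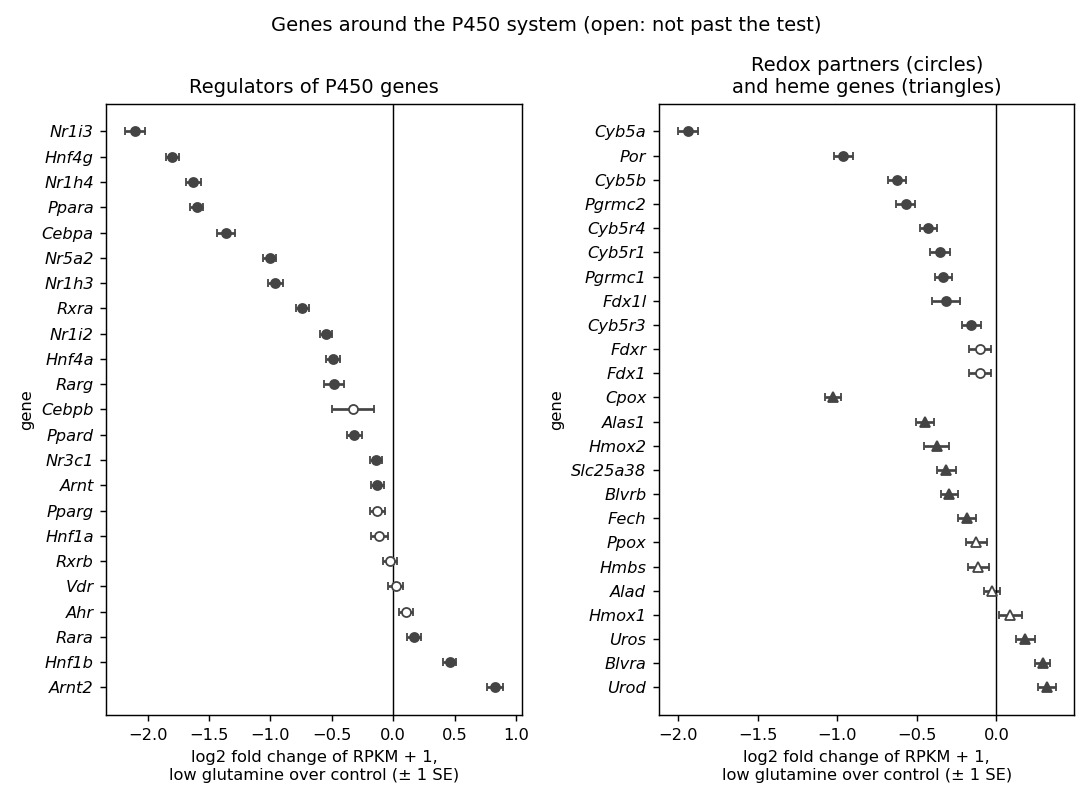
Log2 fold change of RPKM + 1, low glutamine over control, with 1 standard error either side, for tested regulators of P450 genes (left) and for redox partners (circles) and heme genes (triangles) at right. Open symbols did not pass the test, and the lowest values belong to Nr1i3 (-2.10) and Cyb5a (-1.94).

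Of 23 tested regulators of P450 genes, 14 fell and 3 rose, against 30.3% lower and 36.1% higher of all genes tested. The counts were 12 and 5 with rescaling to a common RPKM sum (all genes 22.9% and 51.3%) and 17 and 2 with median-of-ratios scaling (40.6% and 29.6%). CAR (Nr1i3), the receptor behind Cyp2b10, fell from 11.2 ± 1.10 to 1.85 ± 0.265 RPKM (-2.10 ± 0.08, adjusted p = 3.1e-10). PXR (Nr1i2), the receptor behind Cyp3a11, fell less, from 16.6 ± 0.479 to 11.0 ± 0.235 RPKM (-0.55 ± 0.05, adjusted p = 9.9e-07). Hnf4a stayed the most abundant of the named regulators, at 181 ± 4.59 and 128 ± 4.84 RPKM (-0.49 ± 0.06, adjusted p = 9.1e-06). Its relative Hnf4g fell from 40.6 ± 2.17 to 10.9 ± 0.277 RPKM. The fatty acid receptor Ppara fell by 1.60 and the bile acid receptor Nr1h4 by 1.63 in log2 units.

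The aryl hydrocarbon receptor gene Ahr measured 4.58 ± 0.298 and 4.98 ± 0.0769 RPKM (0.10 ± 0.06, adjusted p = 0.13), and passed as higher with rescaling to a common RPKM sum (0.21). Of 6 tested receptor targets outside the P450 family, 5 fell and 1 rose, against 30.3% lower and 36.1% higher of all genes tested. Among those that fell were Nqo1 (15.4 ± 0.681 to 7.07 ± 0.581 RPKM) and Gsta1 (497 ± 32.7 to 142 ± 15.7 RPKM). Ugt1a6a rose from 6.39 ± 0.861 to 28.7 ± 3.11 RPKM. The untested target Ahrr was low, at 0.0317 ± 0.00519 and 0.222 ± 0.0589 RPKM, and higher in low glutamine without overlap. Targets of this receptor inside and outside the family thus included genes of either direction.

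Most markers of absorptive cells were lower, as most tested P450 genes were, and so were most goblet cell markers. Of 24 enterocyte markers 21 were lower and 3 higher in low glutamine (median -2.43), and their summed level was 3463 to 3687 RPKM in control against 1076 to 1195 RPKM in low glutamine. Of 10 goblet cell markers 9 were lower and 1 higher (median -1.06). All 10 stem cell and all 10 Paneth cell markers tested were higher, and of 12 enteroendocrine markers 9 were higher and 3 lower. Of all genes tested, 30.3% were lower and 36.1% higher. In RNA from whole organoids, fewer cells of a type and less RNA per cell cannot be told apart, and the part of cell makeup in the P450 values was not tested. Hepatocyte markers stand for the other tissue rich in these enzymes. Their 9 genes summed to 44.3 to 47.1 RPKM in control libraries and 78.0 to 82.1 RPKM in low glutamine libraries, nearly all of it the transport protein Ttr, the 1 marker tested, which rose by 0.78. Albumin (Alb) stood at 0.137 ± 0.0969 and 0.748 ± 0.164 RPKM.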

How the data were processed

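RNA was measured by sequencing in 6 libraries, 3 per group. The authors deposited RPKM values, 1 column per library. Tools named in the submitters' processing notes are Partek, HISAT2 2.0.4 and CASAVA 1.8, and the build is mm10. The sources used here do not give their roles, the annotation, the counting rule or strandedness. Values below 1e-06 RPKM were read as 0. All 104 members matched RefSeq (GRCm38.p6) by symbol. Gene positions are RefSeq bounds, 1-based.

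The test was limma 3.58.1 (R 4.3.3) on log2(RPKM + 1) with a variance trend, for genes averaging 1 RPKM or more, two-sided, with Benjamini-Hochberg adjustment over all genes tested and a threshold of 0.05. It was tested on simulated data. Depth was estimated from single-exon genes below 0.3 RPKM, where 63.1% to 70.6% of the values came out as whole reads within 0.02. Python 3.11.15 with pandas 2.3.3, numpy 2.4.6, scipy 1.17.1 and matplotlib 3.10.9 served for the rest.

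Values per library are given for tested members with at least 5 RPKM in the higher group and for 9 textbook members. Of the latter, Cyp26b1 is given by its highest value alone. Cyp2c38, Cyp2d22, Cyp39a1, Cyp4f15 and Cyp4f17 met neither rule and are also given per library. Other members were named by range or after their values were seen. Up to 3 genes with the smallest p from each supporting list were added to Por, Cyb5a, Alas1, Hmox1, Ahr, Nr1i2, Nr1i3 and Hnf4a, and Vdr after its values were seen. The members and lists were chosen with earlier results of these data known. Marker lists for goblet, enteroendocrine and tuft cells gave 9, 3 and 1 lower and 1, 9 and 3 higher genes. Of 8 stromal and 7 immune markers, 1 each was tested and higher.

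Replicate numbers are the same in both groups. After subtracting group means, same-numbered libraries correlated at 0.15, 0.25 and 0.57, all above the limit of 0.1 set for pairing. Low glutamine replicate 1 also correlated at 0.36 with control replicate 2, and low glutamine replicate 2 at 0.20 with control replicate 1. The limit therefore does not single out same-numbered libraries, and a pairing of the samples is not established. Standard errors and p-values in the text come from the fit without pairing unless a block is named. Alternatives changed the pseudocount, filter, scaling, block, gene set and libraries.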

Additional observations from a re-analysis of the deposited data

How the results depend on the processing

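The count of lower P450 genes stayed at 24 and that of higher ones at 4 to 5 when each library was left out, with a median log2 fold change of -1.44 to -1.42 and a ratio of summed levels (control over low glutamine) of 3.99 to 4.26. Of the 11032 to 11122 genes in these fits, 2938 to 3647 were lower and 3605 to 3913 higher. Without a filter 32 were lower and 8 higher (4 rows tested only then joined the higher ones, and Cyp20a1 lost its call), and with a mean of at least 5 RPKM 17 were lower and 2 higher. Of all genes, 18.6% were lower and 30.2% higher without a filter. With a mean of at least 5 RPKM, 2747 of 7994 genes were lower and 2532 higher. The median was -1.55 with a pseudocount of 0.1, -1.06 with a pseudocount of 5, -0.025 without a filter (88 rows tested), -1.61 with a mean of at least 5 RPKM (19 rows), -1.32 with rescaling to a common RPKM sum and -1.30 with the same without the ribosomal RNA precursor Rn45s, a setting added after the data were seen. The ratio of sums was 3.77 and 3.69 with these rescalings and 3.66 with quantile normalization. With the replicate number as a block, 24 members were lower and 5 higher, with a median of -1.43, and the block changed no call of a member. Of the 11082 genes in that fit, 3544 were lower and 4192 higher. Of the 30 tested members 28 kept direction and side of the threshold under every alternative in which they were tested. Cyp39a1 turned to 0.056 and 0.077 with the rescalings to a common sum. Vdr turned to -0.073 with median-of-ratios scaling and -0.041 without low glutamine replicate 3, and was 0.054 without low glutamine replicate 2. The cause was not tested. The rescaling to a common sum moved the median of all genes from 0.03 to 0.145, or 0.17 without Rn45s, and the share of higher calls from 54.4% to 69.1% and 71.7%. It was 42.1% with median-of-ratios scaling. Depth limits the low rows: at 0.1 RPKM a transcript of 1 kilobase rests on a few reads.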

Other observations

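Of 13 genes of retinoid handling outside the P450 family, 7 were tested, of which 6 fell and 1 rose in low glutamine, against 30.3% lower and 36.1% higher of all genes tested. Bco1, which cleaves beta-carotene, measured 15.1 ± 0.717 and 2.06 ± 0.286 RPKM and fell by 2.40 on the log2 scale, and the retinol binding protein Rbp2 fell by 2.08. The retinol dehydrogenase Rdh10 rose from 8.70 ± 0.682 to 27.3 ± 0.812 RPKM. Rbp2 is also an enterocyte marker in the list used here. The retinaldehyde dehydrogenases Aldh1a2 and Aldh1a3 were not tested. Their libraries did not overlap and were higher in low glutamine, with Aldh1a2 at 0 in control and 0.0358 ± 0.0258 RPKM in low glutamine, and Aldh1a3 at 0.0382 ± 0.0218 and 0.105 ± 0.00189 RPKM.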
